A study of Mus musculus with 16 samples.

Results

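The genes described here are 9 coreceptors, transcription factors and surface proteins that separate the CD4 from the CD8 lineage of T cells, namely *Cd4*, *Cd8a*, *Cd8b1*, *Zbtb7b*, *Runx3*, *Runx1*, *Gata3*, *Cd40lg* and *Crtam*. They were taken by gene name from a table of 55450 genes, in which each of the 9 names had 1 row, and all 9 passed the filter on low counts in every comparison. The study profiled tumor infiltrating lymphocytes (TILs) from subcutaneous tumors of B16F10, a mouse melanoma line, by stranded total RNA sequencing. There were 4 groups of 4 libraries: CD4+ TILs from wild-type (WT) mice, CD4+ TILs from Sirt2-/- mice (labelled Sirt2KO), and CD8+ TILs from each of these genotypes. *Sirt2* encodes a NAD-dependent deacetylase, and its loss in these mice affects every cell of the host but not the implanted tumor cells. All tumors were of the same line. The labels name no treatment and give no ages, and the sources used here do not say how CD4+ cells were separated from CD8+ cells before sequencing.

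A mature T cell that recognizes peptides on MHC class II carries the coreceptor CD4, whereas one that recognizes peptides on MHC class I carries a CD8 dimer, most often of an alpha chain from *Cd8a* and a beta chain from *Cd8b1*. The choice is made in the thymus, where ThPOK, the product of *Zbtb7b*, holds the helper fate, GATA3 acts before it, and RUNX3 represses *Cd4* and maintains the cytotoxic fate. Both coreceptors bring the kinase LCK to the T cell receptor.

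Total counts ranged from 28000949 to 62407851 over the 16 libraries. In 3 libraries fewer than 15000 genes had a count (Sirt2-/- CD4+ replicate 4 with 8169, WT CD4+ replicate 1 with 12587 and WT CD8+ replicate 1 with 14411), against 17730 to 22138 in the others. *Sirt2* had 0 counts in Sirt2-/- CD4+ replicate 4, 322 to 553 in the other Sirt2-/- libraries and 1196 to 2272 in WT. The 10 pan T cell markers summed to between 2340 and 3318 CPM (the count of a gene per 1000000 reads on genes, after TMM scaling) and none was at 0 in any library.

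The cell types compared are named for CD4 and CD8, so differences in *Cd4*, *Cd8a* and *Cd8b1* follow from how the groups were made. The remaining genes were chosen as lineage genes with earlier results of these data known. The counts of genes passing therefore describe the separation and do not test it. Each of the 9 genes differed between CD8+ and CD4+ TILs in WT mice. By edgeR's quasi-likelihood test, 4 were higher in CD8+ TILs (*Cd8a*, *Cd8b1*, *Runx3* and *Crtam*) and 5 were lower (*Cd4*, *Cd40lg*, *Zbtb7b*, *Runx1* and *Gata3*), with a Benjamini–Hochberg adjusted p from 1.10e-07 to 0.00986. Over all 14892 genes tested, 11.9% passed the same threshold of 0.05, 4.89% as higher and 6.96% as lower. The libraries of the 2 cell types did not overlap for any of the 9, against 22.7% of all genes. In Sirt2-/- mice 7 of the 9 passed, 3 as higher and 4 as lower, against 2.24% of 15787 genes, of which 0.918% were higher and 1.32% lower. The 2 that did not pass were *Cd40lg* and *Crtam*, and 8 of the 9 did not overlap between the cell types, against 22.2% of all genes. The share of 2.24% depended on 1 library. Without Sirt2-/- CD4+ replicate 4, in which few genes were detected, all 9 passed, against 25.4% of 16703 genes. Other alternatives lowered the number of 7. A term for the replicate number lost *Zbtb7b*, *Runx3* and *Gata3*. Testing without the filter on low counts lost *Runx3* and *Gata3*, and calls were also lost without some single libraries. In WT mice 28% of 15694 genes passed without the libraries under 15000 genes. The plot of log2 fold changes sets both genotypes side by side.

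**Figure D1:**
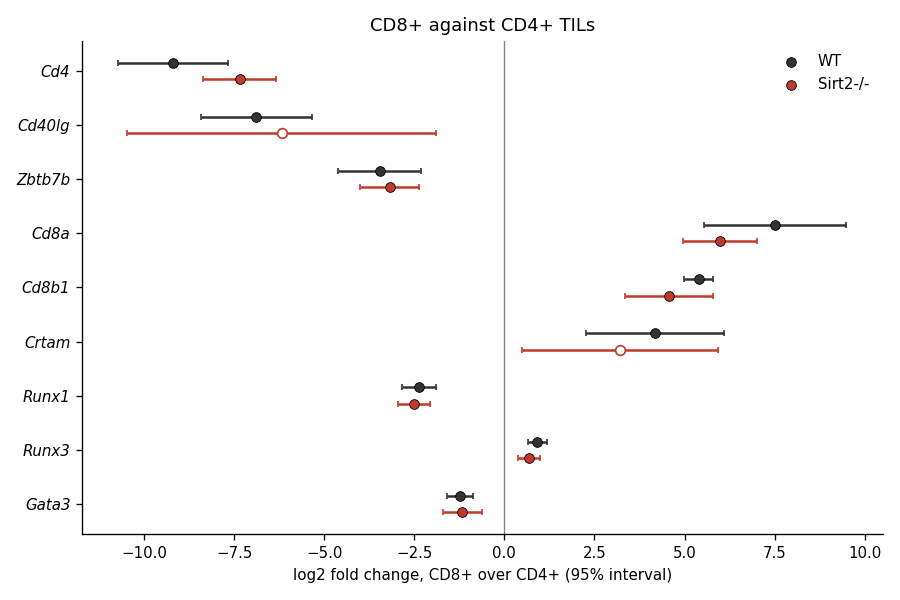
Log2 fold change of each gene in CD8+ over CD4+ TILs (x axis, 4 libraries per cell type) in WT (dark) and Sirt2-/- (red) mice, with 95% intervals as bars and filled points for an adjusted p below 0.05. All 9 points keep the same side of 0 in both genotypes, and the bars of *Cd40lg* and *Crtam* are widest in Sirt2-/- mice, where both points are open.

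*Cd4*, which lies on the minus strand of chromosome 6 (chr6:124864692-124888221, GRCm38), was the most abundant of the 9 genes per kilobase of exon in CD4+ TILs. In WT mice it was measured at 470, 620, 505 and 437 CPM in the CD4+ libraries and at 0, 0.978, 0.598 and 2.03 CPM in the CD8+ libraries, in order of replicate number. The CD4+ libraries of Sirt2-/- mice had 486, 598, 538 and 384 CPM and the CD8+ libraries 1.75, 3.97, 1.84 and 4.93 CPM. The cell types were far apart in both genotypes. CD8+ TILs had a log2 fold change of -9.20 ± 0.69 (SE, n = 4 libraries per group, edgeR adjusted p = 2.19e-05) in WT and of -7.35 ± 0.44 (adjusted p = 0.000628) in Sirt2-/- mice. Without WT CD8+ replicate 4, the library with the most *Cd4* of its group, the WT value was -9.95.

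The 2 chains of CD8 lie next to each other on the plus strand of the same chromosome, *Cd8b1* at chr6:71322788-71337494 and *Cd8a* at chr6:71373427-71379173, with 35.9 kb between them and 53.5 Mb to *Cd4*. *Cd8a* was steady in CD8+ TILs, at 1014, 1038, 1010 and 1037 CPM in WT and at 1013, 1003, 1261 and 1127.5 CPM in Sirt2-/- mice. In CD4+ TILs it varied much more, with 0.0333, 9.24, 2.83 and 8.99 CPM in WT and 10.2, 11.3, 33.4 and 14.1 CPM in Sirt2-/- mice. The lowest of these values, in WT CD4+ replicate 1, was a single read. *Cd8a* was higher in CD8+ TILs by a log2 fold change of 7.51 ± 0.90 (SE, edgeR adjusted p = 0.000441) in WT and 5.99 ± 0.45 (adjusted p = 0.00131) in Sirt2-/- mice.

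*Cd8b1* gave the smallest p of all 14892 genes tested between the cell types in WT mice. Since the CD8+ group is named for this coreceptor, a difference was given in advance. The CD8+ libraries had 448, 666, 645 and 677 CPM and the CD4+ libraries 14.0, 15.6, 13.9 and 11.5 CPM. In Sirt2-/- mice the CD8+ libraries had 757, 615, 785 and 564 CPM, and the CD4+ libraries 12.1, 14.6, 26.7 and 60.8 CPM. Replicates 3 and 4 of the Sirt2-/- CD4+ group lay above all WT CD4+ libraries, while replicates 1 and 2 lay among them. The log2 fold change was 5.40 ± 0.18 (SE, edgeR adjusted p = 1.10e-07) in WT and 4.57 ± 0.54 (adjusted p = 0.00530) in Sirt2-/- mice. Without Sirt2-/- CD4+ replicate 4 the latter was 5.23.

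**Figure D2:**
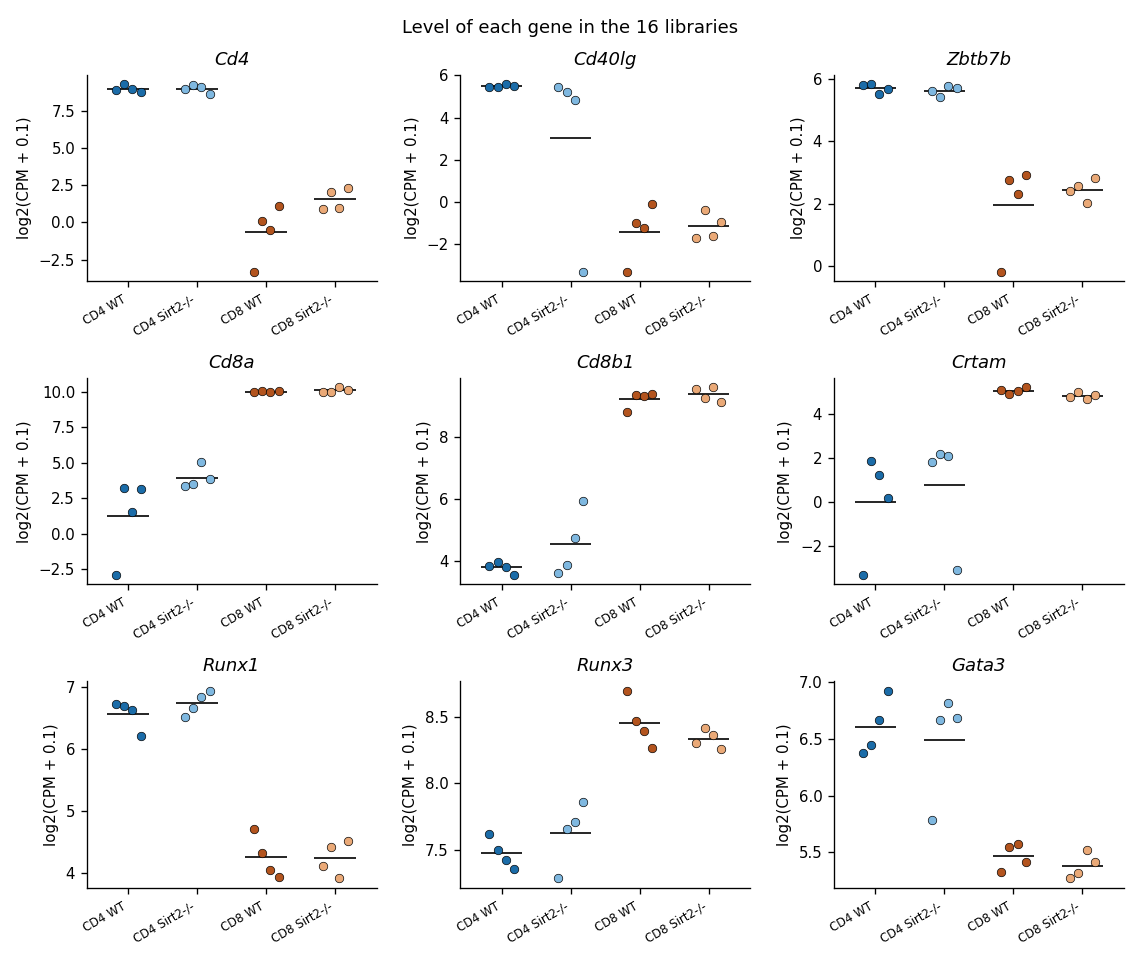
Level of each of the 9 genes as log2(CPM + 0.1) (y axis, a separate range for each gene) in 4 libraries of each of the 4 groups (points, from left to right in order of replicate number), with horizontal lines at the group means. *Cd4*, *Cd8a* and *Cd8b1* leave wide gaps between the cell types, *Runx3* and *Gata3* narrow ones, and 1 Sirt2-/- CD4+ library lies with the CD8+ libraries for *Cd40lg*.

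The share of coreceptor counts (*Cd4*, *Cd8a* and *Cd8b1* together) that belonged to the other lineage was used to describe the purity of each library. In WT CD4+ libraries, *Cd8a* and *Cd8b1* made up 2.90%, 3.85%, 3.20% and 4.48% of these counts (3.61% ± 0.71, SD, n = 4). In Sirt2-/- CD4+ libraries they made up 4.37%, 4.14%, 10.05% and 16.3% (8.72% ± 5.75, SD, n = 4). The first pair of Sirt2-/- libraries lay within the WT range, and the exact 95% binomial intervals of the other pair, from 9.69% to 10.4% and from 15.9% to 16.8%, lay well above it. The difference between genotypes did not pass an exact permutation test over libraries (two-sided, p = 0.0857, where 4 against 4 allow no p below 0.0286). Without Sirt2-/- CD4+ replicate 4 the difference fell from 5.11 to 2.58 percentage points.

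CD8+ libraries held far fewer counts of the other coreceptor. The shares of the 2 cell types are not on the same scale and are not shares of cells, since coreceptor levels differed. In WT, means were 508 CPM of *Cd4* in CD4+ TILs, and 1025 CPM of *Cd8a* and 609 CPM of *Cd8b1* in CD8+ TILs. Sirt2-/- CD4+ replicate 4, with a share of 16.3%, had 1.28% of the CD8+ mean CPM for *Cd8a* and 8.94% for *Cd8b1*. *Cd4* made up 0%, 0.0574%, 0.0361% and 0.118% of the coreceptor counts in WT and 0.0988%, 0.245%, 0.0900% and 0.291% in Sirt2-/- CD8+ libraries. The value of 0 came from 0 of 48316 counts, which allows a share of up to 0.00621% by the limit of 3 counts and up to 0.00763% by the exact 95% binomial interval. The means were 0.0530% ± 0.0496 and 0.181% ± 0.102 (SD, n = 4 each), and 1 WT library lay above the lower 2 Sirt2-/- libraries (exact permutation test, two-sided, p = 0.0857, and adjusted p = 0.0857 for both shares). Intervals and limits of this kind cover counting error only, since the reads carry no molecular identifiers that would make them independent.

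**Figure D3:**
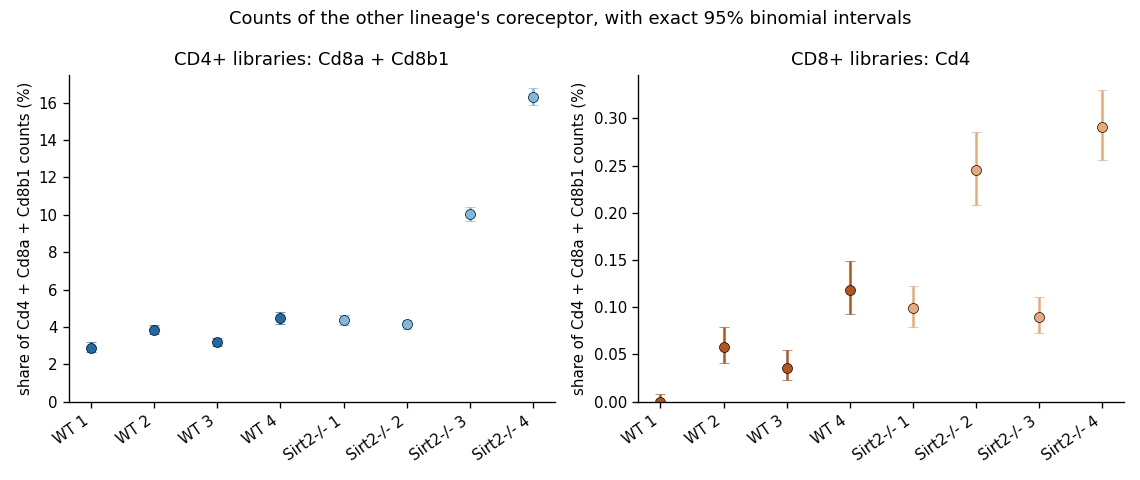
Share of *Cd4*, *Cd8a* and *Cd8b1* counts that belonged to the other lineage (y axis, percent, with a different range in each panel) in the CD4+ libraries (left) and CD8+ libraries (right), with exact 95% binomial intervals as bars. Sirt2-/- CD4+ replicates 3 and 4 stand out at 10.05% and 16.3%, and all CD8+ libraries lie at or below 0.291%.

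Counts of the 2 CD8 chains were also compared with each other, a description chosen after the values were seen and given without a test. There were 0.441 to 0.652 counts of *Cd8b1* for each count of *Cd8a* in WT CD8+ libraries and 0.50 to 0.747 in Sirt2-/- CD8+ libraries. In CD4+ libraries the ratio was 1.69, 4.90 and 1.28 in WT replicates 2 to 4, and replicate 1 had 421 counts of *Cd8b1* beside the single read of *Cd8a*. Sirt2-/- CD4+ libraries had ratios of 1.18, 1.29, 0.80 and 4.32. No CD4+ library reached down to a CD8+ library of either genotype. The mean log2 ratio was higher in CD4+ libraries by 3.65 in WT, or by 1.90 without WT CD4+ replicate 1, and by 1.30 in Sirt2-/- mice, or by 0.80 without Sirt2-/- CD4+ replicate 4.

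Sums of markers of other cells followed these shares in some lists and libraries and not in others. The 5 gamma delta T cell markers summed to 11.8 to 29.1 CPM in WT and 47.7 to 90.5 CPM in Sirt2-/- CD4+ libraries, with up to 3 and up to 2 of them at 0 in 1 library, and to 93.7 to 226 CPM in CD8+ libraries, where *Tcrg-C2* was the highest. *Tcrg-C2* averaged 94.3 CPM in CD8+ and 13.2 CPM in CD4+ libraries, and *Tcrg-C1* and *Tcrg-C4* were also higher in CD8+ libraries. *Trdc* (11.2 against 19.2 CPM) and *Sox13* (0.135 against 1.09 CPM) were lower in CD8+ than in CD4+ libraries. Among Sirt2-/- CD4+ libraries the gamma delta sum was highest, at 90.5 CPM, in replicate 4, which also had the highest CD8 share (16.3%). Among WT CD4+ libraries it was lowest, at 11.8 CPM, in replicate 4, which had the highest CD8 share of that group (4.48%). The 9 macrophage markers summed to 2.24 to 9.04 CPM in WT and 8.94 to 36.5 CPM in Sirt2-/- CD8+ libraries, with up to 7 at 0 in WT and none at 0 in Sirt2-/- libraries. In CD4+ libraries the macrophage markers summed to 1.496 to 15.1 CPM in WT and 6.71 to 33.1 CPM in Sirt2-/- mice, with up to 8 and up to 7 at 0. The highest sum was in Sirt2-/- replicate 3, whose CD8 share was 10.05%. Sirt2-/- replicate 4, with a share of 16.3%, had 11.6 CPM with 7 of them at 0. That was below replicate 2, with 16.4 CPM and a share of 4.14%. Macrophages and some dendritic cells can carry CD4 or CD8 alpha. Of the 7 dendritic cell markers, *Clec9a* and *Cd209a* were at 0 in all 16 libraries and the sum was at most 18.3 CPM. The 6 melanoma markers reached 96.9 CPM in WT CD4+ replicate 1 and 81.5 CPM in Sirt2-/- CD4+ replicate 4, against at most 15.6 CPM in the other libraries. Both were libraries with few genes detected (12587 and 8169). In the WT library none of the 6 was at 0, whereas 4 were at 0 in the Sirt2-/- library. *Mitf* (at most 54.0 CPM) and *Dct* (at most 46.2 CPM) were the highest of them. The part of these cells in the coreceptor shares was not tested. Among other lists, 6 NK cell markers summed to at most 58.7 CPM, 5 B cell markers to at most 12.5 CPM and 5 erythroid markers to at most 9.31 CPM, while the 6 stromal markers reached 181 CPM, of which *Pecam1*, also a gene of leukocytes, was the highest at up to 164 CPM. The stromal sum was 36.2 to 48.3 CPM in WT and 40.6 to 108 CPM in Sirt2-/- CD8+ libraries, and 95.02 to 116 CPM in WT and 64.5 to 181 CPM in Sirt2-/- CD4+ libraries.

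*Zbtb7b* encodes ThPOK, the zinc finger factor that commits thymocytes to the CD4 lineage (chr3:89377644-89394776, minus strand). CD4+ libraries had 55.1, 56.3, 45.7 and 50.5 CPM in WT and 48.0, 42.5, 54.0 and 51.9 CPM in Sirt2-/- mice. CD8+ libraries had 0.786, 6.69, 4.84 and 7.45 CPM in WT and 5.17, 5.85, 3.95 and 6.95 CPM in Sirt2-/- mice. The WT CD8+ library with few genes detected was the lowest, and the other 7 CD8+ libraries lay close together. The log2 fold change was -3.46 ± 0.52 (SE, edgeR adjusted p = 0.00165) in WT and -3.18 ± 0.36 (adjusted p = 0.00432) in Sirt2-/- mice. The call in Sirt2-/- mice was lost in a model with a term for the replicate number, with an unchanged direction.

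Relative to the CD4+ mean of the same genotype, CD8+ libraries kept 1.52% to 14.4% of the *Zbtb7b* level in WT and 8.04% to 14.1% in Sirt2-/- mice. The same libraries kept 0% to 0.400% and 0.349% to 0.984% of the *Cd4* level. *Zbtb7b* was therefore retained at a higher share than *Cd4* in each of the 8 CD8+ libraries. In the reverse direction, CD4+ libraries had 1.77% to 8.94% of the CD8+ mean for *Cd8b1* and 0.00325% to 3.03% for *Cd8a*.

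**Figure D4:**
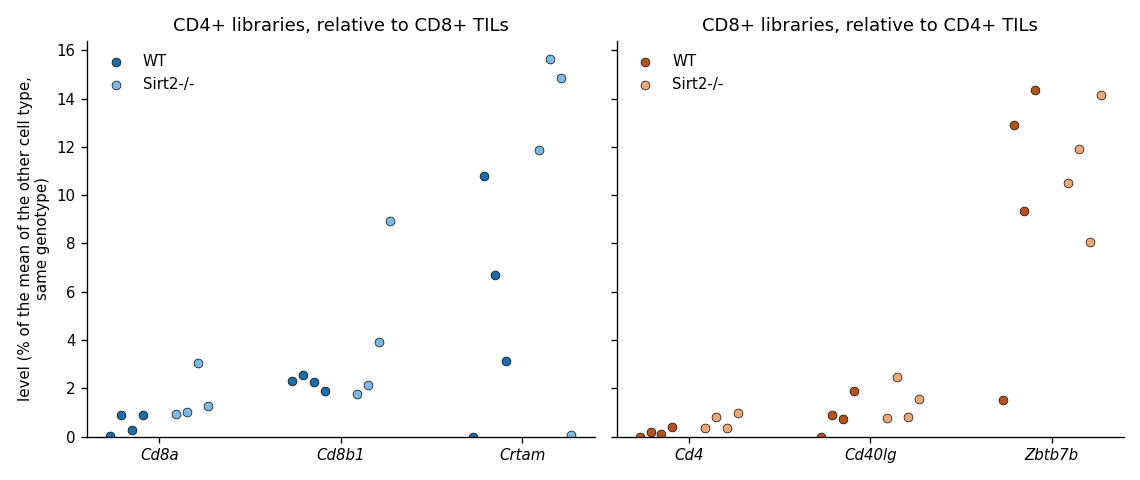
Level of genes of the other lineage in single libraries, as a percentage of the mean CPM in the other cell type of the same genotype (y axis), for 3 genes higher in CD8+ TILs in the CD4+ libraries (left) and 3 genes higher in CD4+ TILs in the CD8+ libraries (right). *Zbtb7b* in CD8+ libraries reaches 14.4%, above *Cd40lg* (at most 2.46%) and *Cd4* (at most 0.984%), and *Crtam* in CD4+ libraries reaches 15.6% but is near 0 in 2 of the 8.

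*Gata3* (chr2:9857078-9890034, minus strand) encodes a factor that is needed for CD4 lineage entry and later drives type 2 helper cells. It was measured at 82.6, 86.9, 101 and 121 CPM in WT and 55.1, 101, 112 and 103 CPM in Sirt2-/- CD4+ libraries. CD8+ libraries had 40.0, 46.7, 47.6 and 42.6 CPM in WT and 38.6, 39.9, 45.9 and 42.6 CPM in Sirt2-/- mice. *Gata3* was thus well expressed in both cell types, without overlap, and CD8+ TILs had close to 1 log2 unit less. The log2 fold changes were -1.22 ± 0.17 (SE, edgeR adjusted p = 0.000799) in WT and -1.16 ± 0.23 (adjusted p = 0.0432) in Sirt2-/- mice. The second call was lost when any 1 of 6 of the 8 Sirt2-/- libraries was left out, all but CD4+ replicates 1 and 4, with an unchanged direction. A term for the replicate number, or testing without the filter on low counts, also lost this call.

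*Cd40lg* (chrX:57212143-57224042, plus strand) encodes CD40 ligand, by which activated helper T cells stimulate B cells and dendritic cells. WT CD4+ libraries had 43.6, 43.2, 47.7 and 44.3 CPM and lay close together. Sirt2-/- CD4+ libraries had 43.8, 36.3, 28.3 and 0 CPM. The 0 was in replicate 4, which had the fewest genes detected, and 3 counts would be 0.0537 CPM there. CD8+ libraries had 0, 0.397, 0.326 and 0.847 CPM in WT and 0.203, 0.666, 0.223 and 0.423 CPM in Sirt2-/- mice.

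The log2 fold change of *Cd40lg* in CD8+ TILs was -6.89 ± 0.70 (SE, edgeR adjusted p = 0.000136) in WT, and -7.56 without WT CD8+ replicate 4. In Sirt2-/- mice it was -6.18 ± 1.88 and did not pass (edgeR adjusted p = 0.172). Without Sirt2-/- CD4+ replicate 4 it was -6.63 and passed (edgeR adjusted p = 6.44e-06).

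*Runx1* (chr16:92601466-92826149, minus strand) encodes a RUNX factor that silences *Cd4* in immature thymocytes and works with FOXP3 in regulatory T cells. CD4+ libraries had 106, 104, 99.3 and 74.5 CPM in WT and 91.5, 101, 115 and 123 CPM in Sirt2-/- mice. CD8+ libraries had 26.1, 19.9, 16.4 and 15.2 CPM in WT and 17.2, 21.2, 15.02 and 22.9 CPM in Sirt2-/- mice. Every CD4+ library lay above every CD8+ library. The log2 fold change was -2.37 ± 0.21 (SE, edgeR adjusted p = 5.94e-05) in WT and -2.51 ± 0.20 (adjusted p = 0.00135) in Sirt2-/- mice, and it passed in each genotype whichever library was left out.

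*Runx3* (chr4:135120652-135177990, plus strand), the RUNX factor of the CD8 lineage, moved the other way but by less. CD8+ libraries had 415, 353, 336 and 308 CPM in WT and 315, 341, 329 and 305 CPM in Sirt2-/- mice. CD4+ libraries had 196, 181, 172 and 164 CPM in WT and 156, 202, 209 and 232 CPM in Sirt2-/- mice. The level in CD4+ TILs was thus at least 156 CPM in each library, and the cell types differed 1.89-fold in WT (log2 0.92 ± 0.12, SE, edgeR adjusted p = 0.000710) and 1.60-fold in Sirt2-/- mice (log2 0.68 ± 0.13, adjusted p = 0.0386). The call in Sirt2-/- mice was lost when any 1 of 7 of the 8 libraries was left out, all but CD4+ replicate 4, while the log2 fold change stayed between 0.57 and 0.74. A term for the replicate number, or testing without the filter on low counts, also lost this call.

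*Crtam* (chr9:40969691-41004628, minus strand) encodes a surface protein of activated CD8+ T cells, NK cells and cytotoxic CD4+ T cells. CD8+ libraries had 33.6, 30.2, 32.5 and 36.9 CPM in WT and 26.9, 32.1, 25.7 and 29.1 CPM in Sirt2-/- mice. CD4+ libraries had 0, 3.598, 2.23 and 1.03 CPM in WT and 3.38, 4.44, 4.22 and 0.0179 CPM in Sirt2-/- mice. The 2 CD4+ libraries at or near 0 were those with few genes detected (WT replicate 1 and Sirt2-/- replicate 4). The log2 fold change was 4.17 ± 0.87 (SE, edgeR adjusted p = 0.00986) in WT, or 4.81 without WT CD4+ replicate 2.

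*Crtam* in Sirt2-/- mice had a log2 fold change of 3.21 ± 1.19 and did not pass (edgeR adjusted p = 0.296), although its groups did not overlap. Without Sirt2-/- CD4+ replicate 4 the value was 2.79 and passed (edgeR adjusted p = 8.06e-06).

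RUNX factors bind a short core, TGTGGT or its reverse complement, and *Cd4*, *Zbtb7b* and the RUNX genes themselves are among their known targets. The core was therefore sought in the promoter windows that could be matched, and none was matched for *Cd4*. RefSeq promoter windows (250 bases before to 50 after a start, GRCm38.p6) were matched for 5 of the 9 genes (*Cd8a*, *Zbtb7b*, *Runx3*, *Runx1* and *Gata3*), as 8 windows. The core was found on either strand in 3 of these, against 16.8% of 32851 windows of all genes. The first window of *Runx3* holds it in a pair, on the minus strand, beginning 134 and 126 bases before the start. The first window of *Runx1* also holds a pair, 29 and 37 bases after its start, and a pair or more was found in 1.81% of all windows. The 250 bases before the start are given for the first *Runx3* start (chr4:135120395-135120644, plus strand), for the second *Zbtb7b* start (chr3:89387672-89387921, minus strand) and for *Cd8a* (chr6:71373177-71373426, plus strand), and the last 30 bases of the window for *Runx1* (chr16:92826025-92826054, minus strand). They are written 5′ to 3′ in the direction of the gene, with the RUNX core in capitals.
Runx3: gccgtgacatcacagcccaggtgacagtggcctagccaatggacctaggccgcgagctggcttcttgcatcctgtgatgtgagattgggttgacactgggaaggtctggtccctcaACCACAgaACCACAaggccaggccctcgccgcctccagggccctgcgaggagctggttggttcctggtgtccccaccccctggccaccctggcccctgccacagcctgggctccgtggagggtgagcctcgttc
Runx1: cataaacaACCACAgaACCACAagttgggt
Zbtb7b: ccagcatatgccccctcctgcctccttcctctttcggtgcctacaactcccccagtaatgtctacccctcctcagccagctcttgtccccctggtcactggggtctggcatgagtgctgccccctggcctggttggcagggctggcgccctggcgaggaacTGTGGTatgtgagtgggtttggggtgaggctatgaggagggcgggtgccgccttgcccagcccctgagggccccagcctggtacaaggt
Cd8a: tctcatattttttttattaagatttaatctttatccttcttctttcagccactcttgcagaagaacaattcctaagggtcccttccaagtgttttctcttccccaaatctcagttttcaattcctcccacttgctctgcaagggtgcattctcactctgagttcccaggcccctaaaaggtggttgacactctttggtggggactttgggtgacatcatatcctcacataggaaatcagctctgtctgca

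The first windows of *Runx3* and *Runx1* share a run of 18 bases that holds both cores, shown because the 2 genes moved in opposite directions between the cell types.
Shared run: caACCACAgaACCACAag
This run was found in 4 of the 32851 windows, those of *Runx3*, *Runx1*, *Runx2* and *Gm16225*, whose window overlaps that of *Runx3*. The window of *Cd8a* holds no RUNX core and has a GATA core (GATAA, in 25.4% of all windows) on the minus strand 220 bases before the start. A match is a sequence only, and no binding was measured. Sites outside the promoter windows were not looked at.

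To set the 9 genes against each other, levels were also expressed per kilobase of exon (RPKM from the CPM above). In WT CD4+ TILs *Cd4* led with 126 ± 19.8 RPKM (SD, n = 4), followed by *Cd40lg* (35.7 ± 1.67) and *Runx3* (35.5 ± 2.76), whose ranges overlapped. *Gata3* (24.6 ± 4.36) came next, then *Zbtb7b* (9.28 ± 0.87), *Cd8b1* (9.27 ± 1.14) and *Runx1* (7.99 ± 1.22), which overlapped in this order, and last *Cd8a* (1.45 ± 1.26) and *Crtam* (0.334 ± 0.302), which also overlapped. Per kilobase, *Cd8b1* in WT CD4+ TILs was thus at the level of *Zbtb7b*, the helper lineage factor. The scaling counted every annotated exon, 1483 bases for *Cd8b1* and 5591 for *Zbtb7b*. In CPM, *Cd8b1* in these libraries was 1.89% to 2.56% of its mean in WT CD8+ TILs. Which cells it came from was not tested.

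In WT CD8+ TILs the order was *Cd8b1* (410 ± 73.0 RPKM), *Cd8a* (282 ± 4.08), *Runx3* (70.5 ± 9.05), *Gata3* (11.1 ± 0.89) and *Crtam* (6.49 ± 0.55), each apart from the next. The remaining 4, *Runx1* (1.62 ± 0.41), *Zbtb7b* (0.884 ± 0.533), *Cd40lg* (0.314 ± 0.279) and *Cd4* (0.224 ± 0.212), each overlapped the next. Sirt2-/- CD8+ TILs had the same first 7 genes in the same order, and *Runx3* stood above *Gata3* in all 4 groups.

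The genes most like each member were sought by Pearson's r of log2 CPM over all 16 libraries among 17261 other genes, as a description in which the difference between cell types carries most of r. *Cd4* was most like *Maf* (r = 0.98), *Foxp3* (0.98) and *Dusp1* (0.98), *Runx1* most like *Ctla4* (0.99), *Tmem154* (0.98) and *Tbc1d4* (0.98), and *Zbtb7b* most like *Dusp1* (0.98), *Nav2* (0.98) and *Vill* (0.97). *Cd8a* was most like *F2r* (0.99), *Sema4a* (0.98) and *Gnl3* (0.98), and *Crtam* most like *Adgrg5*, *Rad51ap1* and *Rgs8* (0.98 each). *Cd8b1* stood nearest to *Pum3*, *Rps12* and *Atp8b4* (0.97 each), and *Cd40lg* to *Gm5541* (0.98), *Ccr6* (0.97) and *Dnm3* (0.96). The values were lowest for *Gata3* (*Rab11fip1*, 0.95, *Zscan29*, 0.94, and *Odc1*, 0.94) and *Runx3* (*Mtap*, *2410018L13Rik* and *Rrp1b*, 0.94 each), the genes with the smallest fold changes.

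Other genes of the pathway were taken as 3 lists. Of 17 genes of the lineage choice network in the thymus, 7 were lower and none higher in CD8+ TILs in WT mice (median log2 fold change -0.18, against -0.02 over all genes tested), and 2 were lower in Sirt2-/- mice (median -0.11 against 0.16). Over all genes tested, 6.96% were lower in WT and 1.32% in Sirt2-/- mice. *Myb*, a factor of thymocyte growth (102.8 to 211 CPM in WT CD4+ and 21.8 to 37.9 CPM in WT CD8+ libraries), had a log2 fold change of -2.43 ± 0.25 (SE, edgeR adjusted p = 0.000147), and *Il7r*, the IL-7 receptor, one of -1.54 ± 0.22 (adjusted p = 0.00110). *Stat5b* (-1.34), which signals for that receptor, *Bcl11b* (-0.76) and *Lef1* (-0.62) also passed. Of these, *Myb* (-2.38, edgeR adjusted p = 0.0188) and *Stat5b* (-1.36, adjusted p = 0.00229) were the genes that passed in Sirt2-/- mice. For all 3 lists the Sirt2-/- counts include CD4+ replicate 4, without which 25.4% of all genes passed. The lists were not counted again without it.

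Of 17 helper genes, 14 could be tested in WT mice and 13 were lower in CD8+ TILs (median -3.21), while 11 of 15 tested were lower in Sirt2-/- mice (median -2.57). Over all genes tested, 6.96% were lower in WT (median -0.02) and 1.32% in Sirt2-/- mice (median 0.16). The smallest p values in WT belonged to the costimulatory receptors *Tnfrsf4* (log2 fold change -4.88), *Icos* (-3.09) and *Tnfrsf18* (-2.34), the inhibitory receptor *Ctla4* (-4.69) and *Foxp3* (-7.97 ± 0.47, SE, edgeR adjusted p = 4.15e-06), the factor of regulatory T cells. *Foxp3* was at 359 to 923 CPM in WT CD4+ and 0.968 to 4.32 CPM in WT CD8+ libraries. All 5 passed in Sirt2-/- mice as well, with *Foxp3* at -6.83.

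Of 18 cytotoxic genes, 10 were higher and 1 lower in CD8+ TILs in WT mice (median 2.01), and 4 were higher in Sirt2-/- mice (median 2.14). Over all genes tested, 4.89% were higher and 6.96% lower in WT (median -0.02), and 0.918% were higher in Sirt2-/- mice (median 0.16). The leading genes in WT were *Nkg7*, a granule protein (log2 fold change 2.57), *Eomes*, a factor of effector and memory CD8+ cells (3.48 ± 0.28, SE, edgeR adjusted p = 3.90e-05), the protease gene *Ctsw* (1.91) and the lectin receptors *Klrc1* (3.58) and *Klrd1* (3.07). The gene that went the other way was *Itgae*, the alpha E integrin (-1.48 ± 0.22, adjusted p = 0.00143). In Sirt2-/- mice *Eomes* (3.58), *Klrc1* (3.63), the perforin gene *Prf1* (3.01) and *Fasl* (1.53) passed. Of the leading WT genes, *Nkg7* (3.38 ± 1.23, SE), *Ctsw* (2.58 ± 1.25) and *Klrd1* (3.18 ± 1.28) did not pass there. Their values were larger than in WT, but the spread was wide. The lowest Sirt2-/- CD4+ library had 0.0179 CPM of *Nkg7*, 0.0179 CPM of *Ctsw* and 0 CPM of *Klrd1*. In these samples fewer cells of a type and less RNA per cell cannot be told apart.

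Loss of *Sirt2* was compared with WT within each cell type. None of the 9 genes passed in CD4+ TILs (edgeR adjusted p = 1.0 for each), where 0% of 15070 genes did and 190 genes had an unadjusted p below 0.05, none of them among the 9. None passed in CD8+ TILs (edgeR adjusted p from 0.986 to 0.998), where 0.00654% of 15302 genes did, and 579 genes, again none of the 9, had an unadjusted p below 0.05. DESeq2 and limma-voom also called none of the 9 in either cell type.

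The intervals show how large a difference these libraries could hide. For the coreceptor of the own lineage they were narrow, from -0.43 to 0.40 (log2, 95% interval) for *Cd4* in CD4+ TILs, from -0.11 to 0.32 for *Cd8a* and from -0.17 to 0.49 for *Cd8b1* in CD8+ TILs. For *Runx3* the log2 fold change was 0.17 (-0.19 to 0.53) in CD4+ and -0.13 (-0.36 to 0.10) in CD8+ TILs, and for *Gata3* -0.08 (-0.64 to 0.48) and -0.08 (-0.33 to 0.16). *Runx1* had 0.17 (-0.25 to 0.58) and -0.03 (-0.49 to 0.44). *Zbtb7b* had -0.07 (-0.59 to 0.45) in CD4+ and 0.15 (-1.02 to 1.32) in CD8+ TILs, *Cd40lg* -0.71 (-3.66 to 2.25) and -0.05 (-2.43 to 2.33), and *Crtam* 0.82 (-2.97 to 4.60) and -0.23 (-0.51 to 0.05). The signs of values near 0 depended on single libraries, and that of *Runx1* in CD8+ TILs turned to 0.16 without WT CD8+ replicate 1.

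Coreceptors of the other lineage had larger values and wide intervals. *Cd8a* in CD4+ TILs was higher in each Sirt2-/- library (lowest 10.2 CPM) than in any WT library (highest 9.24 CPM), with a log2 fold change of 1.71 (-1.18 to 4.59, edgeR adjusted p = 1.0). It was the only 1 of the 9 whose genotypes did not overlap in CD4+ TILs, where 3.13% of all genes did not, and none of the 9 was free of overlap in CD8+ TILs, against 2.95%. *Cd8b1* in CD4+ TILs had 1.05 (-0.42 to 2.51), and 0.39 without Sirt2-/- CD4+ replicate 4. *Cd4* in CD8+ TILs had 1.79 (-0.31 to 3.90, unadjusted p = 0.0871 and adjusted p = 0.986 by edgeR), and 2.57 without WT CD8+ replicate 4.

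**Figure D5:**
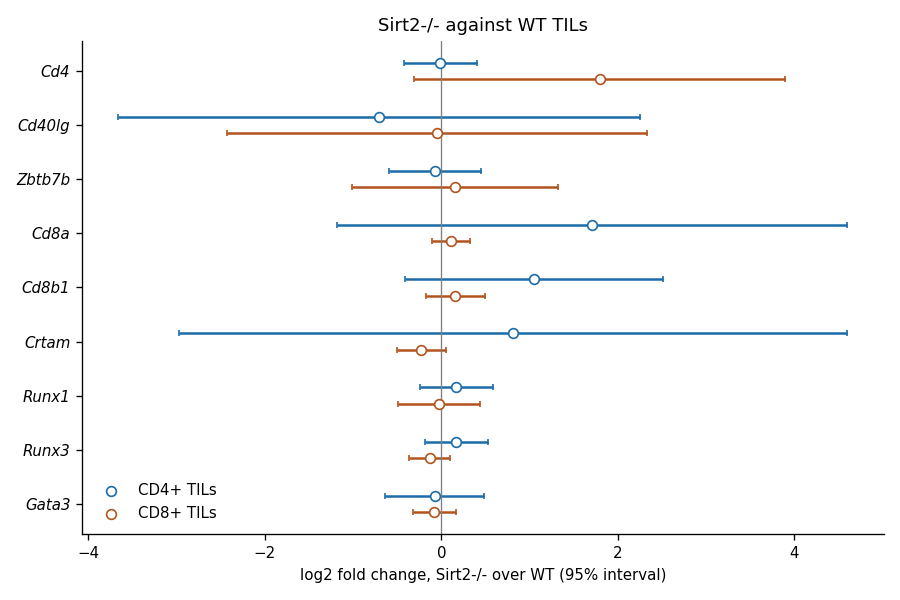
Log2 fold change of each gene in Sirt2-/- over WT TILs (x axis, 4 libraries per genotype) in CD4+ (blue) and CD8+ (orange) TILs, with 95% intervals as bars and open points for an adjusted p of 0.05 or above. All 18 intervals include 0, and the widest belong to *Crtam*, *Cd8a* and *Cd40lg* in CD4+ TILs.

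Whether the difference between CD8+ and CD4+ TILs itself depended on the genotype was tested over all 16 libraries. None of the 9 genes passed (edgeR adjusted p = 1.0 for each), as for 0% of 17270 genes, of which 342 had an unadjusted p below 0.05. *Cd4* was the single one of the 9 among these, with a difference of 1.80 on the log2 scale (0.06 to 3.54, unadjusted p = 0.0431 by edgeR), and 2.56 without WT CD8+ replicate 4. The difference was -1.60 (-3.67 to 0.47) for *Cd8a*, -0.89 (-1.99 to 0.20) for *Cd8b1* and -0.30 (-0.69 to 0.10) for *Runx3*. The intervals of the other 5 also included 0. By edgeR, no gene of the lineage choice, helper and cytotoxic lists passed in either cell type or in the difference. At an unadjusted p below 0.05 there was 1 gene of each list in CD4+ TILs, where 1.26% of all genes had one, and 1 lineage choice, 4 helper and 2 cytotoxic genes in CD8+ TILs, against 3.78%. For the difference there were 3 helper genes and none of the other 2 lists, against 1.98%.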

How the data were processed

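The authors sequenced total RNA of TILs of both lineages. The deposited table gives raw counts of reads for each gene, and the submitters' processing notes name STAR, HTSeq and mm10. Versions and the strand setting of the counting are not given in the sources used here, so reads of *Gata3*, *Zbtb7b* and *Runx1* could not be told from those of antisense genes that share 155, 116 and 106 exonic bases with them and had at most 239, 71 and 21 counts. The 55450 identifiers match GENCODE M21 (GRCm38), the source of positions and exon lengths.

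Tests were run with edgeR 4.0.16 in R 4.3.3 (TMM, filterByExpr by group, robust quasi-likelihood test, two-sided), over the 8 libraries of each comparison, and over all 16 for the difference between genotypes. P values were adjusted over all genes tested, at a threshold of 0.05. The authors state n = 4 per group for TILs from tumors of WT and Sirt2-/- mice. They do not say whether CD4+ and CD8+ libraries came from the same mice. The labels do not say that libraries came from separate animals, so p values measure only the spread between libraries. The functions were tested on simulated data. Alternatives were DESeq2 1.42.0, limma 3.58.1 (voom with quality weights), other size factors and filters, 1 model for all libraries, a replicate block, and leaving out libraries.

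The 9 genes and the lists were chosen with earlier results of these data known. All 9 are named in every comparison, and of the 3 other lists at most 5 passing genes per direction, by smallest p in WT. Marker lists are given by their sums, with single genes named for some lists only. For likeness, log2 CPM had a prior count of 2. The *Cd8b1* to *Cd8a* ratio (log2, with 0.5 counts added to each) was added after the data were seen and was not tested.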

Additional observations from a re-analysis of the deposited data

Results flagged for a closer look

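Of 40 groups of 4 values tested by Dixon's criterion (9 genes and the coreceptor share in 4 groups), 2 held a library far from the other 3, and chance alone gives about 2. *Cd8a* in Sirt2-/- CD4+ replicate 3 was at 33.4 CPM, above the 3 others of its group. *Cd8b1* in WT CD8+ replicate 1, where 14411 genes had a count, was at 448 CPM, below the 3 others of its group.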

How the results depend on the processing

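In the comparison of CD8+ with CD4+ TILs no alternative turned the direction of any of the 9 genes. In WT mice all 9 passed under 14 of the 16 alternatives, 8 without the filter (*Crtam* lost, edgeR adjusted p = 0.0862), and 5 with at least 10 counts in every library, a filter that left 5 of the 9 to be tested. In Sirt2-/- mice the number was 5 to 9 when single libraries were left out, 9 by DESeq2, by limma-voom and without Sirt2-/- CD4+ replicate 4 (the library under 15000 genes), 8 in 1 model of all libraries (with *Cd40lg*), 5 without the filter (*Runx3* and *Gata3* lost) and 4 with a replicate block (*Zbtb7b*, *Runx3* and *Gata3* lost). The numbers were not used as pairs, since neither the labels nor the authors' methods say that libraries with the same number share an animal. Residuals of CD8+ and CD4+ libraries with the same number correlated at 0.0668 to 0.119 in WT, each best with its own number. In Sirt2-/- mice they correlated at -0.0145 to 0.133, and replicates 1 and 2 were best with their own number. Whether the libraries are paired is therefore not settled. The replicate block left the WT count at 9 and the genotype counts at 0. The genotype comparisons called 0 of the 9 under every alternative run.

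Some genotype values near 0 changed sign, and the cause was not tested. In CD4+ TILs *Cd4* was 0.067 by limma-voom and 0.057 without the 3 libraries under 15000 genes, and -0.11 to 0.11 when single libraries were left out, and *Gata3* was -0.18 to 0.10 then. In CD8+ TILs *Zbtb7b* was -0.22 by limma-voom, -0.20 without the 3 libraries and -0.20 to 0.43 without single ones, *Runx1* was 0.11, 0.16 and -0.13 to 0.16, and *Cd40lg* was 0.48 with the replicate block and -0.46 to 0.65 without single libraries. For the difference between genotypes *Zbtb7b* was -0.13 by limma-voom, -0.13 without the 3 libraries and -0.13 to 0.50 without single ones, *Runx1* was 0.014 and 0.0080, and *Cd40lg* was -0.15 and -0.17. *Gata3* was 0.0010 by DESeq2, 0.0011 with its size factors, 0.054 with at least 10 counts, 0.029 with the replicate block, 0.079 without the 3 libraries and -0.19 to 0.10 without single ones. Leaving out those 3 libraries gave differences of 2.34 and 0.110 percentage points in the coreceptor shares of CD4+ and CD8+ libraries. Of the 9 genes *Cd40lg* had the fewest counts in CD8+ libraries, 0 to 30 in each.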
